A study of Sus scrofa domesticus with 34 samples.

Results

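CPA1, PNLIP and PLA2G1B, 3 of the 31907 genes counted in 34 pig libraries labelled muscle, encode digestive enzymes of the exocrine pancreas. They were picked by symbol after earlier results of the same libraries had shown high counts in 1 library of the combination diet, replicate 3. The levels in that library, and each contrast in which it takes part, are therefore given as a description and without a test. Tests come from the other 33 libraries. These were also part of the earlier results, so the tests are not fully independent of the choice.

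The study asked how the form and dose of vitamin D in feed affect the muscle transcriptome of pigs. Cholecalciferol is vitamin D3, and 25(OH)D (25-hydroxycholecalciferol, calcidiol) is the form the liver makes from it. The combination diet (8 pigs, 4 of them females and 4 castrated males) held 2000 IU cholecalciferol with 1000 IU 25(OH)D per kg of grower feed. Its finisher feed held 1500 IU of the first and 1000 IU of the second. The 25(OH)D diet (8 pigs, 4 females and 4 castrated males) held 2000 IU in grower and 1500 IU in finisher feed, with no cholecalciferol. The increased cholecalciferol diet (10 pigs, 6 females and 4 castrated males) held 3000 IU and 2500 IU. The standard cholecalciferol diet (8 pigs, 4 females and 4 castrated males) was the control, with 2000 IU and 1500 IU. Every diet thus supplied vitamin D, and no group went without it. The sources used here give no breed, age or name of the muscle. Replicate numbers below follow accession order.

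Acinar cells of the pancreas make digestive enzymes, largely as inactive precursors, pack them into zymogen granules and release them into the duct. Carboxypeptidase A1 (CPA1) removes amino acids from the C-terminal end of peptides, pancreatic triglyceride lipase (PNLIP) splits dietary fat with the help of colipase, and pancreatic phospholipase A2 (PLA2G1B) cuts phospholipids. The transcripts are among the most abundant of acinar cells and serve as markers of them.

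The files held 1.34 to 30.4 M gene counts per library (M, 1000000 counts), with a median of 6.67 M and 4.29 M in combination replicate 3. Depth went with the file number: files 1 to 24 held 4.08 to 13.2 M counts, files 25 to 29 held 16.8 to 30.4 M, and files 30 to 34 held 1.34 to 2.69 M. The muscle label does not match all of the RNA. The summed level of 9 neuron genes lay above that of 13 skeletal muscle genes in 30 of 34 libraries, and that of 6 oligodendrocyte genes did so in 25 of 34. The sums depend on which listed genes had a symbol in the files: 9 of 10 for neurons, 6 of 8 for oligodendrocytes and 13 of 20 for muscle. The muscle genes left out include MYH1, MYH2, MYH4 and TTN, which lowers the muscle sum. Levels are counts per 1000000 gene counts (CPM). Each read stands for a transcript's 3′ end, so counts do not scale with transcript length. In bulk tissue, fewer cells of a type and less RNA per cell cannot be told apart.

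CPA1 (ENSSSCG00000016557) had 623 counts in combination replicate 3, a castrated male, which is 145 CPM (134 to 157, exact Poisson 95% interval, counting error only). The other 33 libraries, all with CPA1 counts, had 841 counts in sum, with a lowest level of 0.476 CPM, a median of 2.82 CPM and a highest of 11.5 CPM. The single library thus lay 51.5 times above the median of the others and 12.6 times above the next, and it carried 54.5% of the CPM summed over all libraries. CPA1 was the only 1 of the 3 transcripts detected in every library.

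PNLIP (ENSSSCG00000010658) had 309 counts in combination replicate 3, or 72.0 CPM (64.2 to 80.5). The other libraries held 199 counts in sum, and 5 of 33 had none. Their median was 0.596 CPM and their highest level 6.37 CPM, so that combination replicate 3 stood 121 times above the median and 11.3 times above the next library. It carried 70.4% of the summed CPM.

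PLA2G1B (ENSSSCG00000029501) had 472 counts there, or 110.0 CPM (100.3 to 120.3), against 352 counts summed over the other 33 libraries, 3 of which had none. Their median was 0.889 CPM and their highest level 7.51 CPM. Combination replicate 3 was 124 times above that median, 14.6 times above the next library, and carried 69.7% of the summed CPM. No other library came within 10 times of it for any of the 3 genes.

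**Figure D1:**
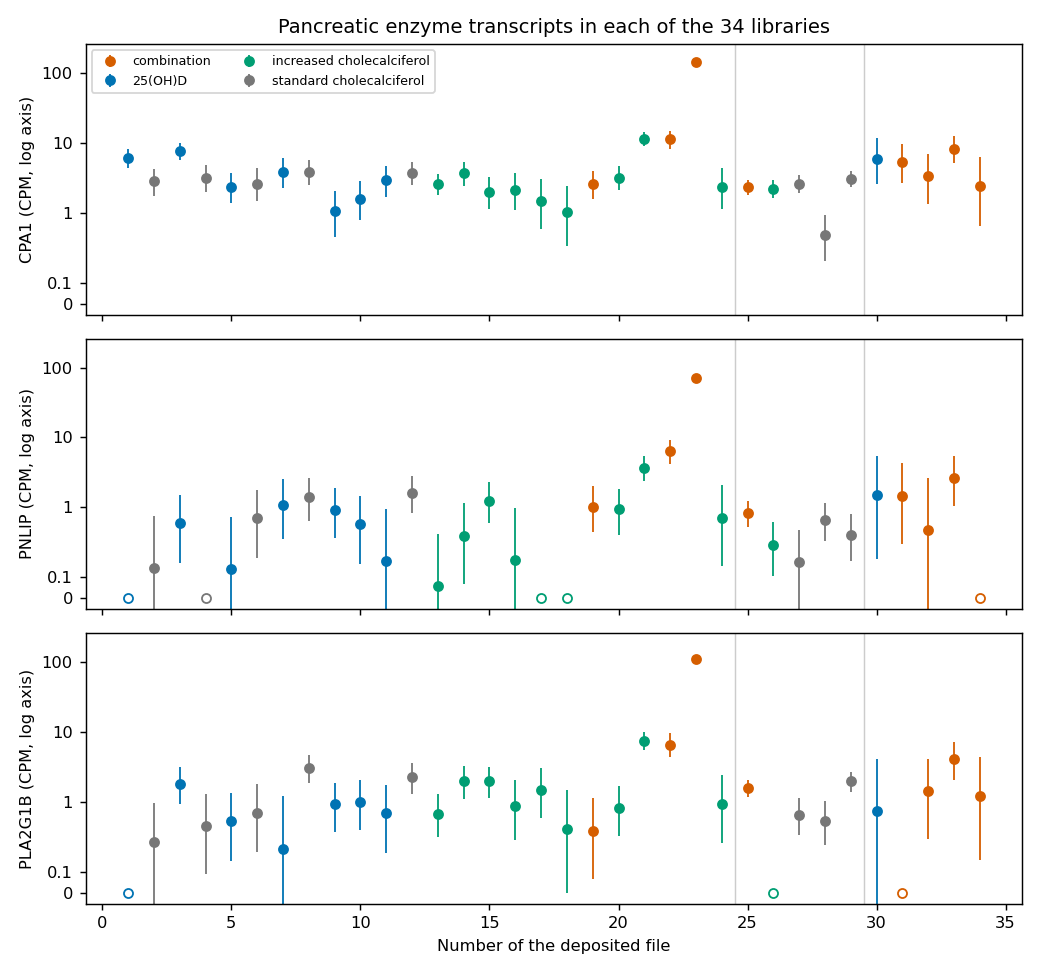
CPM of CPA1, PNLIP and PLA2G1B in each of the 34 libraries by file number (log axis with 0 drawn at its low end), coloured by diet, with exact Poisson 95% intervals of the counts as bars, open circles for 0 counts and grey lines between the runs of files. Combination replicate 3 is highest for all 3 genes, at 145, 72.0 and 110.0 CPM, and no other library passes 11.5 CPM.

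The next places were held by the same 2 libraries for all 3 genes: increased cholecalciferol replicate 8, a castrated male, and combination replicate 2, a female. Combination replicate 2 had 11.3 CPM of CPA1, 6.37 CPM of PNLIP and 6.61 CPM of PLA2G1B. Increased cholecalciferol replicate 8 had 11.5, 3.68 and 7.51 CPM of the same genes. Relative to combination replicate 3, these levels were 7.76%, 8.85% and 6.01% in combination replicate 2, and 7.91%, 5.11% and 6.83% in increased cholecalciferol replicate 8. Both thus held each transcript at a similar small fraction of the highest library. By file number the 3 libraries are consecutive, 21 to 23. The files on either side, 20 and 24, had 3.17 and 2.35 CPM of CPA1, near the median of the others. The fourth place fell in all 3 genes to combination replicate 7, a female from the shallowest files, at 8.19 CPM of CPA1, 2.60 CPM of PNLIP and 4.09 CPM of PLA2G1B, on 22, 7 and 11 counts.

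The proportions of the 3 transcripts in the high library lay within the wide spread of single libraries. As a description, CPA1 held a smaller part there than in the summed counts of the libraries outside the 3 highest. In combination replicate 3, CPA1 gave 44.4% of the 1404 counts of the 3 genes (95% Wilson interval 41.8 to 47.0%, counting error only). PNLIP gave 22.0% (19.9 to 24.3%) and PLA2G1B 33.6% (31.2 to 36.1%). In the 31 libraries other than the 3 highest, CPA1 gave 63.0% of 1139 summed counts (60.1 to 65.7%). There PNLIP gave 13% (11.2 to 15.1%) and PLA2G1B 24.1% (21.7 to 26.6%). The intervals of summed counts leave out the spread between libraries, so they do not test a difference from combination replicate 3. Library by library, CPA1 gave 28.6% at the lowest, 65.2% at the median and 100% at the highest of these 31, on 6 to 144 counts each, and 3 of the 31 had a share at or below that of combination replicate 3. CPA1 made up 46.5% of 99 counts in combination replicate 2 (37.0 to 56.2%) and 50.6% of 154 counts in increased cholecalciferol replicate 8 (42.8 to 58.4%). These intervals hold counting error only, and both shares also lie inside the range of the 31 libraries.

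CPA1 was also found where the other enzymes were not. All 3 transcripts had counts in 27 of 34 libraries, exactly 2 in 6, and CPA1 alone in 1. In 25(OH)D replicate 1 CPA1 had 39 counts (6.08 CPM), while PNLIP and PLA2G1B had 0, where 3 counts would be 0.468 CPM. Increased cholecalciferol replicate 10, with 21.0 M counts, had 46 CPA1 and 6 PNLIP counts but 0 of PLA2G1B, where 3 counts would be 0.143 CPM. Depth was lower elsewhere: 3 counts would be 1.47 CPM in combination replicate 5, where PLA2G1B had 0 counts, and 1.81 CPM in combination replicate 8, where PNLIP had 0. The part of depth in the zeros was not tested.

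Over the 33 libraries without combination replicate 3, the levels were related in all 3 pairs by Pearson's r on the log2(CPM + 1) scale, and much of that rested on the same 2 libraries. PNLIP and PLA2G1B had r = 0.68 (permutation p = 5e-05, Benjamini-Hochberg 0.00015 over 3 pairs) and Spearman's rho = 0.46 (permutation p = 0.00839, adjusted 0.0147). CPA1 and PNLIP had r = 0.62 (permutation p = 0.0002, adjusted 0.0003) and rho = 0.45 (permutation p = 0.00978, adjusted 0.0147). CPA1 and PLA2G1B had r = 0.51 (permutation p = 0.00246, adjusted 0.00246) and rho = 0.25 (permutation p = 0.162, adjusted 0.162), so that their ranks were not related past the threshold. Without increased cholecalciferol replicate 8 and combination replicate 2, the 2 farthest from the median, r was 0.42 for PNLIP with PLA2G1B (permutation p = 0.019), 0.37 for CPA1 with PNLIP (permutation p = 0.0388) and 0.20 for CPA1 with PLA2G1B (permutation p = 0.283). The rank correlations without them were 0.34, 0.33 and 0.09, none past the threshold. Within files 1 to 24, 23 libraries without combination replicate 3, r was 0.80, 0.61 and 0.58 for the pairs in the same order. These files include the same 2 libraries, so the values still rest in part on them. The rank correlations there were 0.60 (permutation p = 0.00315), 0.41 (permutation p = 0.0568) and 0.21 (permutation p = 0.341). The other runs held 5 files each, too few for a value.

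**Figure D2:**
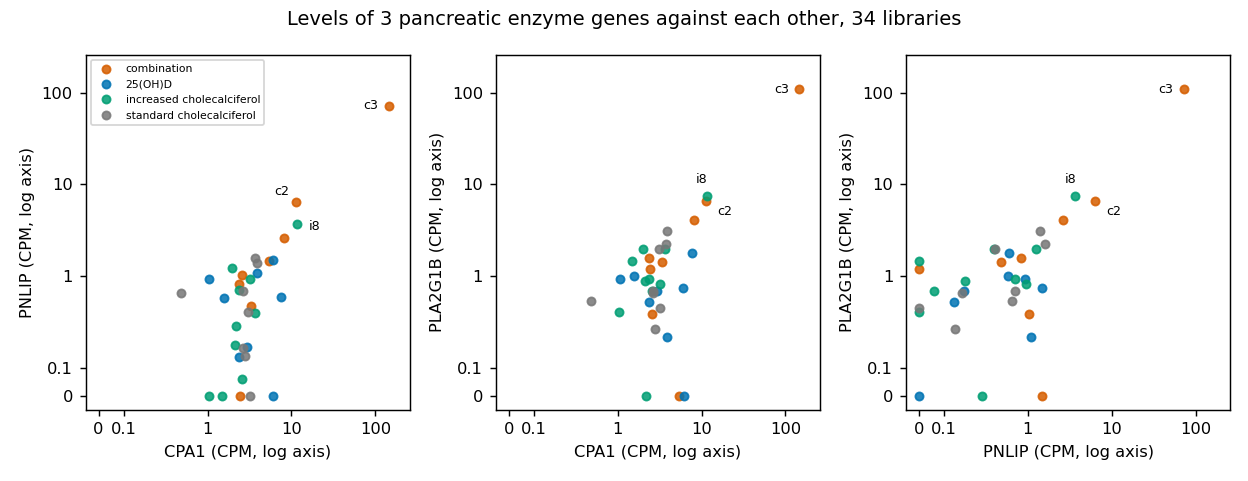
CPM of each pair of the 3 genes against each other in 34 libraries (log axes with 0 drawn at the low end), coloured by diet; c3 is combination replicate 3, c2 combination replicate 2 and i8 increased cholecalciferol replicate 8. The upper right of each panel holds those 3 libraries and, at 8.19 CPM of CPA1, combination replicate 7, while most of the rest lie below 4 CPM on both axes.

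As a description of these libraries, genes with a mean of at least 1 CPM over the 33 libraries were ranked by Spearman's rho with each transcript. PNLIP (mean 0.917 CPM), PRSS2, CPB1, CLPS and CEL lay below that mean, so they could not be among the most alike. The 5 named genes most alike were DTHD1, BRI3, MRPS23, IKBKG and OAS2 for CPA1 (rho 0.66 to 0.61). For PNLIP they were LY75, GALNT6, SPATS2, SEC23B and RPS6KC1 (0.59 to 0.55). For PLA2G1B they were MED31, MPZL1, DAP3, NTHL1 and SLC27A1 (0.59 to 0.56). Among 14023 or 14024 genes with a mean of at least 1 CPM, together with the enzyme genes, PNLIP ranked 323 and PLA2G1B 2948 for likeness to CPA1. PLA2G1B ranked 55 and CPA1 67 for likeness to PNLIP, and PNLIP ranked 82 and CPA1 1411 for likeness to PLA2G1B. With counts of 0 to 78 behind each value, these ranks carry large counting error.

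Other products of acinar cells were high in the same library, but not all of them. Of 51 further genes listed for acinar enzymes, other secretory products and transcription factors, 28 had a symbol in the files, 25 had a count and 17 had at least 50 counts. Of these 17, 8 were highest in combination replicate 3, and 6 of the 8 had over 50% of their summed CPM there. Over all 18010 genes with at least 50 counts, 8.24% were highest in that library and 0.133% had over 50% of their summed CPM there. The acinar lists were written with the high counts of this library known, so that these counts describe the library and test nothing.

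The 8 genes were proteases, lipases and secretory products. Among peptidases, PRSS2, a trypsinogen, had 103 CPM in combination replicate 3, against 3.92 CPM in the next library and a median of 0.312 CPM over the 31 libraries outside the 3 highest. CPB1, carboxypeptidase B1, had 26.1 CPM against 5.30 CPM in the next. CPB1 had 36 counts in increased cholecalciferol replicate 8 and 11 in combination replicate 2, of the 61 counts outside combination replicate 3, and its median over the 31 was 0. PRSS2 belongs to a family of near-identical genes, so that its count may miss reads that align to several copies.

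Among fat-digesting proteins, colipase (CLPS), which holds pancreatic lipase at the fat droplet, had 36.6 CPM against 3.18 CPM in the next library. Bile salt-activated lipase (CEL) had 12.6 CPM against 2.69 CPM, and the lipase-related PNLIPRP1 had 10.0 CPM against 3.67 CPM. The next library was combination replicate 2 for all 3 of these genes. GP2, the main membrane glycoprotein of zymogen granules, had 24.2 CPM against 1.22 CPM in combination replicate 2. Syncollin (SYCN), a granule protein, had 9.78 CPM against 1.12 CPM in combination replicate 7, and deoxyribonuclease 1 (DNASE1) had 11.4 CPM against 11.2 CPM in 25(OH)D replicate 1. For DNASE1 the highest library hardly stood apart, on 49 counts, and this gene is known from many tissues. For 6 of the 8 genes the next highest library was combination replicate 2 or increased cholecalciferol replicate 8, as for 22% of the 1484 genes that were highest in combination replicate 3.

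The other 9 acinar genes with at least 50 counts were within the range of the rest. RNASE1, pancreatic ribonuclease, which vessels also make, had 116 CPM in combination replicate 3 against 54.1 to 199 CPM in the 31 libraries. XBP1, a transcription factor of secretory cells in general, had 85.7 CPM against 40.9 to 159.5 CPM. The lipase-related PNLIPRP2 (3.96 CPM), the trypsin inhibitor SPINK1 (3.49 CPM) and KLK1, tissue kallikrein (2.80 CPM), were each higher in at least 1 other library. The same held for PDIA2, a protein disulfide isomerase of the pancreas (4.43 CPM), the zinc transporter SLC39A5 (7.45 CPM), the water channel AQP8 (1.40 CPM) and the nuclear receptor NR5A2 (0.699 CPM). Of the transcription factors that define acinar cells, PTF1A had 0 counts in combination replicate 3, RBPJL 5, BHLHA15 2 and GATA4 1. RBPJL had 9 counts in all the other libraries together. The remaining scarce genes gave 5 counts of SERPINI2, 2 of ERP27, and 0 of TMED6 and GNMT. CTRL and CELA2A had no count in any library.

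**Figure D3:**
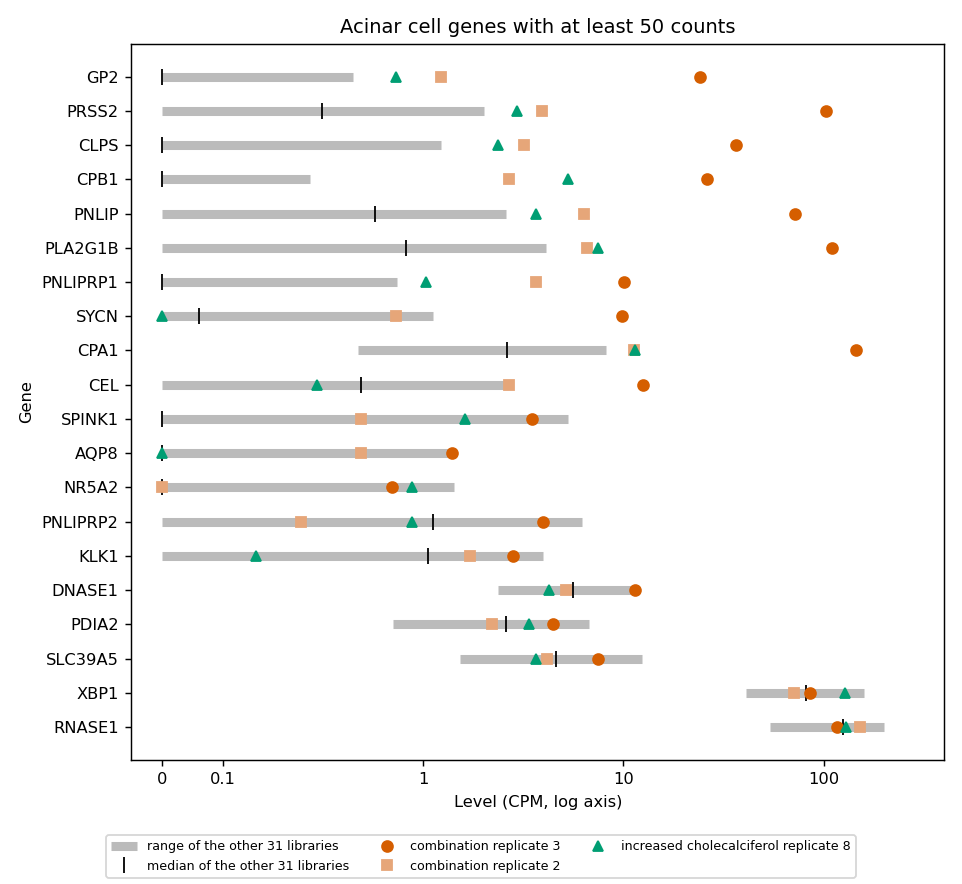
CPM (log axis with 0 drawn at its low end) of CPA1, PNLIP, PLA2G1B and the 17 other acinar cell genes with at least 50 counts, for combination replicate 3, combination replicate 2, increased cholecalciferol replicate 8 and the range and median of the other 31 libraries. Combination replicate 3 lies above all others for the 3 enzyme genes and 8 further genes, while RNASE1 and XBP1 at 116 and 85.7 CPM lie within the range of the rest.

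The transcripts most concentrated in combination replicate 3 were not all acinar. The 20 named genes with the largest share of their summed CPM in that library included 9 of the acinar lists: GP2 (84.8%), PRSS2 (83.2%), CLPS (76.7%), CPB1 (74.2%), PNLIP, PLA2G1B, PNLIPRP1 (58.7%), SYCN (58.2%) and CPA1. The 2 largest shares belonged to genes of dopamine neurons. SLC6A3, the dopamine transporter, had 99.2% of its summed CPM there, at 161 CPM and with 8 counts in all other libraries. TH, tyrosine hydroxylase, the first enzyme of dopamine synthesis, had 86.2%, at 159 CPM. SLC10A4, a synaptic vesicle protein of aminergic neurons, had 73.5%. The others were DLK1, a membrane protein related to Notch ligands (71.0%), FAM163A (68.9%), the stomach mucus peptide TFF2 (67.0%), the receptor GPR101 (63.5%) and FOXA1, a transcription factor of endoderm organs and dopamine neurons (59.2%). SFRP5, a secreted inhibitor of Wnt proteins (53.7%), the organic cation transporter SLC22A2 (52.1%) and the matrix protein gene POSTN (49.3%) completed the set. The first gene outside the 20 was IDO1, at 46.7%. A further 5 identifiers with no symbol had shares within the same range.

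The next highest level of these acinar and other genes is given as a description. It was in combination replicate 2 or increased cholecalciferol replicate 8 for 8 of the 9 acinar genes and for 2 of the 11 others. Beside this stand 22% of the 1484 genes that were highest in combination replicate 3. The 9 include CPA1, PNLIP and PLA2G1B, whose next libraries were given above. The 2 others, GPR101 and FOXA1, were at only 0.736 and 1.18 CPM in increased cholecalciferol replicate 8. In combination replicate 2 the acinar genes had a median of 7.76% of their level in combination replicate 3, and the others 1.89%. In increased cholecalciferol replicate 8 the medians were 6.44% and 0.784%. SLC6A3 had 0 counts in both libraries. All these values come from single libraries, and the genes were chosen by their level in combination replicate 3, so no test was made.

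**Figure D4:**
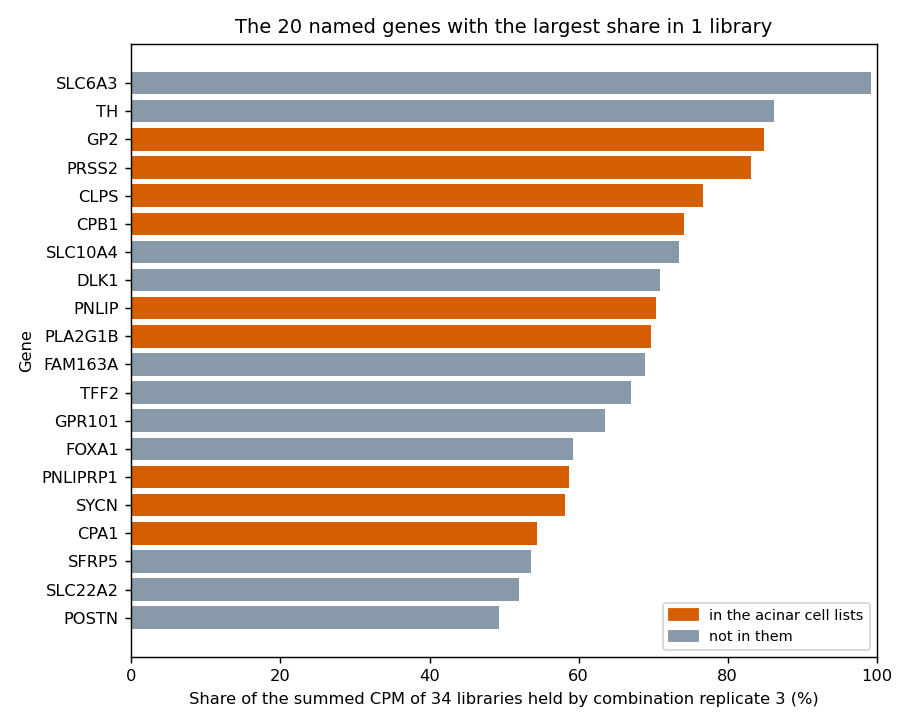
Share of summed CPM over 34 libraries (%) found in combination replicate 3, for the 20 named genes with the largest share, with acinar genes and other genes in different colours. SLC6A3 at 99.2% and TH at 86.2% lead, and 9 of the 20 are acinar, with CPA1 at 54.5%.

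Some lists for other cell types and organs were also high in combination replicate 3, and others were not. Summed over 7 smooth muscle and vessel genes, the level was 484 CPM in combination replicate 3, 226 CPM in increased cholecalciferol replicate 8 and 71.5 CPM in combination replicate 2, against 44.8 to 104 CPM in the other 31 libraries. All 7 were highest in combination replicate 3, beside 8.24% of all genes with at least 50 counts. The 11 fibroblast and matrix genes summed to 1805, 689.7 and 692 CPM in the same 3 libraries, against 348 to 891 CPM. Of these, 7 of 11 were highest in combination replicate 3, beside the same 8.24%. These counts describe 1 library and were not tested.

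Oligodendrocyte genes (6 measured) summed to 8635 CPM in combination replicate 3, 14425 CPM in increased cholecalciferol replicate 8 and 10697 CPM in combination replicate 2, against 2379.7 to 8778 CPM in the other 31 libraries. Astrocyte genes (6 measured) summed to 4267, 6609 and 2575 CPM, against 1746 to 3082 CPM. Blood and immune genes (7 with counts) summed to 1019, 737 and 555 CPM, against 259 to 1079 CPM, the neuron list to 6447, 6395 and 5563 CPM, against 4653 to 10702 CPM, and the skeletal muscle list to 3720, 3239 and 2787 CPM, against 1268 to 8077 CPM. Increased cholecalciferol replicate 8 was also the highest library for 1557 of 18010 genes, and combination replicate 3 for 1484, out of 34 libraries. The part of these differences in the enzyme levels was not tested.

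Among markers of the other pancreatic cell types, the islet hormone genes were at or near 0 in combination replicate 3 except somatostatin. Insulin (INS) had 3 counts there against 1 in the other 33 libraries together, and the islet gene SLC30A8 had 1 against 1. Glucagon (GCG), pancreatic polypeptide (PPY) and the islet gene G6PC2 had 0 there, against 2, 14 and 3 in the others. Somatostatin (SST), also a neuropeptide, had 16.3 CPM, below the median of 49.5 CPM in the 31 libraries, and PCSK1, a hormone-processing protease also of neurons, had 32.6 CPM against a median of 45 CPM. The transcription factor gene NKX6-1 had 3.49 CPM there, the highest of 34 libraries, on 15 counts. NKX2-2, also a transcription factor gene, had 15.6 CPM, the second highest. It was highest at 20.8 CPM in increased cholecalciferol replicate 8, the library with the highest oligodendrocyte sum. The islet list summed to 208 CPM, against 25.2 to 316 CPM in the 31 libraries, of which the transthyretin gene TTR, also made by choroid plexus and liver, gave 139 CPM.

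The duct list was above the 31 libraries in combination replicate 3, at 177 CPM against 19.6 to 116 CPM, and increased cholecalciferol replicate 8 was higher still at 249.8 CPM. Of the sum in combination replicate 3, SPP1 gave 120.0 CPM and SOX9 45.4 CPM, both also genes of brain and other tissues. The duct genes KRT7 and CFTR had 1 and 0 counts. TFF2 had 11.4 CPM against 1.43 CPM in the next library.

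Of the lists for neighbouring organs, the stomach list was highest in combination replicate 3, and the liver and intestine lists were not. Stomach genes (7 with counts) summed to 15.6 CPM in combination replicate 3, 2.20 CPM in combination replicate 2 and 0.736 CPM in increased cholecalciferol replicate 8, against 0.263 to 10.7 CPM in the 31 others. The sum in combination replicate 3 was the highest of all libraries. Of the stomach genes, GKN1 (6.29 CPM) and, on 9 counts, TFF1 (2.10 CPM) were highest there, and the others were not. Liver genes (12 measured) summed to 1149, 1118 and 1645 CPM in the same 3 libraries, against 241 to 1646 CPM. Most of this came from TF (687, 802 and 1268 CPM), transferrin, which oligodendrocytes also make. Albumin (ALB) was at 56.8, 16.2 and 17.7 CPM, against 12.8 to 818 CPM. Intestine genes (8 measured) summed to 240.4, 279.7 and 183 CPM, against 128 to 261 CPM, with APOA1 giving most of each sum. No gene of the liver or intestine list with at least 50 counts was highest in combination replicate 3, beside 8.24% of all genes with that many counts. The 3 salivary gland genes had 0 counts there.

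Without combination replicate 3, no difference between diets in CPA1 passed the test. The combination diet had CPA1 levels of 2.34 CPM at the lowest, 3.33 at the median and 11.3 at the highest, the 25(OH)D diet 1.05, 3.39 and 7.60, increased cholecalciferol 1.03, 2.27 and 11.5, and standard cholecalciferol 0.476, 2.94 and 3.86. The 4 ranges overlapped. The means were 5.07 ± 3.46 CPM for the combination (SD, n = 7), 3.93 ± 2.38 for 25(OH)D (n = 8), 3.21 ± 3.01 for increased cholecalciferol (n = 10) and 2.79 ± 1.05 for standard cholecalciferol (n = 8). The median order put 25(OH)D first, the mean order put the combination first, and the differences between neighbours in either order were smaller than the SDs. With combination replicate 3, the combination diet averaged 22.6 ± 49.6 CPM (n = 8) with an SD above the mean.

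Levels of PNLIP in the combination diet without that library were 0, 1.02 and 6.37 CPM at the lowest, median and highest, in the 25(OH)D diet 0, 0.585 and 1.49, in increased cholecalciferol 0, 0.341 and 3.68, and in standard cholecalciferol 0, 0.528 and 1.59. The means were 1.82 ± 2.17, 0.620 ± 0.519, 0.750 ± 1.11 and 0.629 ± 0.588 CPM in the same order (SD, n = 7, 8, 10 and 8). Every diet had at least 1 library with no PNLIP count. PLA2G1B had 0, 1.43 and 6.61 CPM in the combination diet, 0, 0.716 and 1.79 in the 25(OH)D diet, 0, 0.915 and 7.51 in increased cholecalciferol, and 0.268, 0.675 and 3.09 in standard cholecalciferol. The means were 2.19 ± 2.35, 0.736 ± 0.544, 1.67 ± 2.15 and 1.24 ± 1.05 CPM. All 4 ranges overlapped for both genes, and the highest library of the combination and of the increased cholecalciferol diet was in each case replicate 2 and replicate 8.

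**Figure D5:**
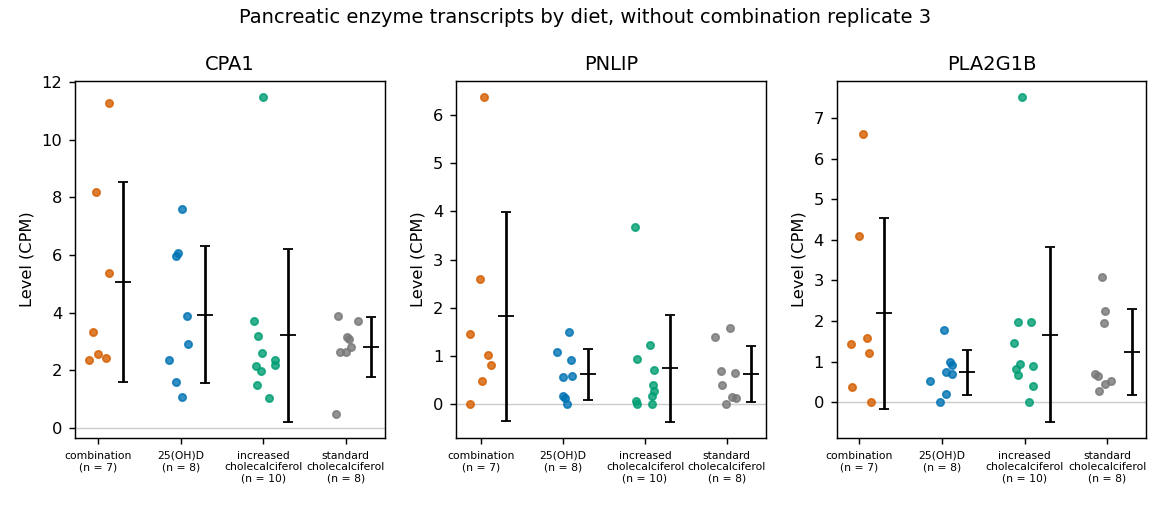
CPM of CPA1, PNLIP and PLA2G1B by diet without combination replicate 3 (n = 7, 8, 10 and 8 libraries), one point a library, with the mean and SD as a line and bar. The diets overlap for each gene, and the single high points of the combination and increased cholecalciferol diets reach 11.3 and 11.5 CPM of CPA1.

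The tests were edgeR quasi-likelihood F-tests with diet and sex as terms, adjusted over the 14129 genes tested. CPA1 and PLA2G1B passed the filter on low counts. PNLIP did not, and its values come from the fit with no filter. The comparisons share groups, so their values are not independent. Each SE was derived as the absolute log2 fold change over the square root of F. The 95% intervals were built from that SE with a t quantile, so they are approximate. For the combination against standard cholecalciferol, the log2 fold change of CPA1 was 0.82 (SE 0.46, 95% interval −0.11 to 1.75, edgeR adjusted p = 1.00). That of PLA2G1B was 0.75 (SE 0.72, interval −0.71 to 2.21) and that of PNLIP 1.40 (SE 0.77, interval −0.16 to 2.96). None of the 3 genes passed, as for 0% of all genes tested. With combination replicate 3 in the fit, the log2 fold changes were 2.61 (SE 0.66) for CPA1 and 3.22 (SE 0.92) for PLA2G1B. That library thus gave most of each value on the log2 scale. Without combination replicate 2 as well, CPA1 was at 0.46 and PLA2G1B at 0.21.

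A pair of comparisons set forms of vitamin D side by side. At equal dose, 25(OH)D against standard cholecalciferol gave a log2 fold change of 0.50 for CPA1 (SE 0.44, interval −0.39 to 1.39), −0.70 for PLA2G1B (SE 0.73, interval −2.19 to 0.78) and −0.16 for PNLIP (SE 0.79, interval −1.74 to 1.43). The combination against increased cholecalciferol, at equal total IU in both feeds, gave 0.70 for CPA1 (SE 0.44, interval −0.19 to 1.60), 0.41 for PLA2G1B (SE 0.70, interval −1.01 to 1.83) and 1.20 for PNLIP (SE 0.75, interval −0.31 to 2.70). Without 25(OH)D replicate 2, CPA1 in the first comparison was at 0.26, and without standard cholecalciferol replicate 4 PLA2G1B was at −0.35. Calls were 0 of 3 in both, beside 0% of all genes in each. The intervals for CPA1 leave out a 2-fold lower level but not a 2-fold higher one, and those of PLA2G1B in the second comparison and of PNLIP in the first include both. PLA2G1B in the second comparison was at −0.09 without combination replicate 2 and at 1.15 without increased cholecalciferol replicate 8.

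For increased against standard cholecalciferol, a test of dose, the values were 0.12 for CPA1 (SE 0.41, interval −0.71 to 0.96), 0.34 for PLA2G1B (SE 0.65, interval −0.98 to 1.65) and 0.21 for PNLIP (SE 0.70, interval −1.21 to 1.62). Again 0 of 3 passed and 0% of all genes did. Without increased cholecalciferol replicate 8, CPA1 was at −0.29 and PLA2G1B at −0.47, so that the sign of both turned without that library. CPA1 also turned, to −0.076, without standard cholecalciferol replicate 7. Over all 4 diets at once, F was 1.39 for CPA1 (edgeR adjusted p = 0.812), 1.30 for PLA2G1B (edgeR adjusted p = 0.820) and 1.72 for PNLIP (edgeR adjusted p = 0.640, no filter), beside 0% of all genes. The counts of 0 were the same with DESeq2 and limma-voom. At an unadjusted p below 0.05, edgeR listed 423 genes for the combination and 456 for 25(OH)D, each against standard cholecalciferol. It listed 1091 for increased against standard cholecalciferol, 676 for the combination against increased cholecalciferol and 889 over all diets, with neither CPA1 nor PLA2G1B among them.

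No difference between females and castrated males passed for the 3 transcripts. CPA1 had a lowest, median and highest level of 1.03, 3.00 and 11.3 CPM in 18 females, against 0.476, 2.61 and 11.5 CPM in 15 castrated males without combination replicate 3. The log2 fold change, female over castrated male, was 0.02 for CPA1 (SE 0.32, interval −0.62 to 0.67, edgeR adjusted p = 0.993), 0.43 for PLA2G1B (SE 0.51, interval −0.60 to 1.45) and 0.56 for PNLIP (SE 0.55, interval −0.55 to 1.68). None passed, beside 0.0779% of all genes (11 of 14129).

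Of the other acinar genes, 7 passed the filter without combination replicate 3: DNASE1, KLK1, PDIA2, PNLIPRP2, RNASE1, SLC39A5 and XBP1. By edgeR, 0 of 7 were called in each diet comparison and for sex, beside 0% of all genes for diets and 0.0779% for sex. An unadjusted p below 0.05 was found for SLC39A5 in the combination against increased cholecalciferol (1 of 7, beside 4.78% of all genes) and for DNASE1 over all 4 diets (1 of 7, beside 6.29%). Their median log2 fold change was −0.21 for the combination against standard cholecalciferol, beside −0.01 over all genes. It was 0.02 for 25(OH)D against standard cholecalciferol (0.00 over all genes), −0.05 for increased against standard cholecalciferol (0.01) and −0.16 for the combination against increased cholecalciferol (−0.02). The acinar genes that stood out in combination replicate 3, other than CPA1, PLA2G1B and DNASE1, had too few counts elsewhere to pass.

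The runs of file numbers differ in depth and in diet, and in CPA1. Files 30 to 34 had 5.06 ± 2.27 CPM (SD, n = 5), files 25 to 29 had 2.14 ± 0.988 (n = 5) and files 1 to 24, without combination replicate 3, had 3.71 ± 2.84 (n = 23). Files 30 to 34 held 4 of the 7 remaining combination libraries. The labels name no batch, and a run here is only a stretch of the submitters' file numbers. With a term for the run, the log2 fold change of CPA1 in the combination against standard cholecalciferol was 0.66 (SE 0.51). Within files 1 to 24 it was 1.02 (SE 0.68), with replicates 1 and 2 as the only combination libraries. Neither passed by edgeR (adjusted p = 0.997 and 0.772, of a range of 0.772 to 1.00 over all settings).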

How the data were processed

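The 34 deposited files hold raw read counts per gene for 31907 Ensembl identifiers, with no normalization by the authors, and 5 lines of HTSeq categories that were left out (16.4 to 29.9% of reads outside features, 11.2 to 20.7% with several alignments). Frozen tissue was extracted with Trizol and sequenced from QuantSeq 3′ forward libraries, per the labels' protocols. The tools were FastQC, TopHat, HTSeq and DESeq2, per the submitters' processing notes. For versions, genome build, annotation and strand setting the sources used here give nothing, so an overlapping or antisense gene could share reads. Genes with near-identical copies may be undercounted. A table of names matched 15029 identifiers. Symbols that did not match, such as those of amylase and most elastases, are not analysed here, and no coordinates or sequences were used. Some listed items are not reported here.

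Diet and sex came from the labels and doses from the design text. The design text counts individuals per diet. Replicate numbers follow accession order and pair no samples. No files were identical. CPM were computed on total gene counts. Intervals are exact Poisson for counts and Wilson for shares (95%, counting error only), and at 0 a floor of 3 counts is given. Tests used edgeR 4.0.16 in R 4.3.3 (TMM, expression filter by diet, model of diet and sex) over 33 libraries without combination replicate 3, with two-sided p-values adjusted by the Benjamini-Hochberg method over all genes tested and 0.05 as threshold. Correlations used 100000 two-sided permutations (scipy 1.17.1), at least 17 libraries with counts and a pseudocount of 1. Alternatives were other sets of libraries, terms for run and sex, no filter, other size factors, DESeq2 1.42.0, limma-voom 3.58.1 (limma), TMM-scaled levels and a pseudocount of 0.1. The scripts were tested on simulated counts.

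The 3 genes and all lists were chosen with earlier results of these data known. The rule for named genes took the 3 enzymes, every acinar gene with a count, the 20 genes with a symbol and at least 50 counts with the largest share in combination replicate 3, the 5 most like each enzyme by rank correlation, and the defining genes of other lists where that library was highest or lowest.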

Additional observations from a re-analysis of the deposited data

Results flagged for a closer look

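Of 15 sets of values tested for a library far from the others (3 genes in 4 diets, and again in the combination diet without replicate 3), 8 had one by Dixon's gap rule. Of these, 3 are combination replicate 3, whose high counts led to the choice of the genes, so that its gaps test nothing. As a description, it had 145 CPM of CPA1, 72.0 CPM of PNLIP and 110.0 CPM of PLA2G1B. Of the 12 sets without it, 5 had a library apart, and the sets share libraries across genes. The rule's rate of about 1 in 20 assumes normally distributed values. These CPM are skewed and rest on few counts, so no chance rate can be set beside the 5. In the combination diet without replicate 3, replicate 2 was apart for PNLIP, at 6.37 CPM. In the increased cholecalciferol diet, replicate 8 was the highest of 10 and apart in all 3 genes, with 11.5 CPM of CPA1, 3.68 CPM of PNLIP and 7.51 CPM of PLA2G1B. In the standard cholecalciferol diet, replicate 7 was the lowest of 8 for CPA1, at 0.476 CPM on 8 counts of 16.8 M (1000000), while its PNLIP (0.654 CPM) and PLA2G1B (0.535 CPM) lay near the middle of their diet. No set of the 25(OH)D diet had such a library.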

How the results depend on the processing

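Of 180 values from settings other than leaving out 1 further library, 166 kept their direction and their side of the threshold. No enzyme gene passed in any setting without combination replicate 3, with adjusted p of at least 0.640. The sign turned in 10, a level moved in 3 and a correlation no longer passed in 1. The turned values for increased against standard cholecalciferol were CPA1 (−0.21 in files 1 to 24, −0.094 with a term for the run), PNLIP (−0.042 in files 1 to 24) and PLA2G1B (−0.12 with the run term, −0.47 by limma-voom). For females against castrated males these were CPA1 (−0.80 with all 34 libraries, −0.38 in files 1 to 24, −0.079 without files 30 to 34, −0.14 with the run term) and PLA2G1B (−0.71 with all 34). The cause was not tested. With TMM-scaled library sizes, combination replicate 3 had 128 CPM of CPA1, 63.5 of PNLIP and 97.0 of PLA2G1B. With a pseudocount of 0.1, r of CPA1 with PLA2G1B was 0.29 (permutation p = 0.104).

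Leaving out each further library gave −0.29 to 0.24 for CPA1 and −0.47 to 0.65 for PLA2G1B in increased against standard cholecalciferol, −0.089 to 1.15 for PLA2G1B in the combination against increased cholecalciferol, and −0.091 to 0.29 for CPA1 in females against castrated males. No paired analysis was possible because replicate numbers follow accession order. PNLIP passed the filter in few settings, and counts of 0 to 26 outside combination replicate 3 limit what its values can show.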
